A study of Homo sapiens with 4 samples.

Results

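The 9 genes described here place, copy, remove or read 5-methylcytosine: DNMT1, DNMT3A, DNMT3B, DNMT3L, UHRF1, TET1, TET2, TET3 and MBD2. They were chosen by name and function, and all CpG dinucleotides over each GENCODE gene record with 5000 bp on either side were taken. They are 9 of the 19970 protein-coding genes used. Their loci hold 14800 CpGs in the reference sequence (hg38), of which 11947 were listed in all 4 libraries, out of 23269121 such shared CpGs on chromosomes 1 to 22 and X. Methylation of these genes was measured, not their expression.

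DNA of HUDEP-2 cells, an immortalised human erythroid progenitor line made from cord blood cells and grown in doxycycline, was analysed by whole-genome bisulfite sequencing, in which unmethylated cytosines are converted and methylated ones are not. The 4 groups were non-differentiated cells, differentiated cells given the vehicle DMSO, differentiated cells given a DNMT1 inhibitor and differentiated cells given an EED inhibitor (EED is a core subunit of Polycomb repressive complex PRC2), with 1 library per group. Differentiation ran through 4 days of growth and 2 days of maturation, and compounds were present in 0.1% DMSO from the preceding expansion stage onwards. The labels state that cells given a compound had more fetal haemoglobin. The names and doses of the compounds are not given in the sources used here. With 1 library per group there is no replicate check: each test below compares the reads of a pair of libraries, not conditions. The intervals are for counting error only and take every read at every CpG as independent. PCR copies carry no molecular identifier and neighbouring CpGs share reads, so the intervals are too narrow even for that error. The DMSO library enters all 3 comparisons. The deposited tables list between 24689329 and 24971588 CpGs per library at a mean coverage of 27.2 to 29.7 reads. Over the 9 loci the mean coverage relative to DMSO, after scaling for the coverage of the whole library, lay between 90.4% and 111% except at MBD2 in the EED inhibitor library, where it was 82.2%. The promoters of 9 tested erythroid genes had a median level of 29.4% in DMSO and those of 10 genes of other blood lineages a median of 54.5%. Methylation alone does not identify a cell type.

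DNMT1 is the maintenance methyltransferase: it copies the methyl mark onto the new strand after DNA replication. UHRF1 binds hemimethylated CpGs and brings DNMT1 to them. DNMT3A and DNMT3B methylate DNA de novo, and DNMT3L is a cofactor without catalytic activity of its own. TET1, TET2 and TET3 are dioxygenases that oxidise 5-methylcytosine and so start its removal. TET2 and DNMT3A are among the genes often mutated in blood cancers. MBD2 binds methylated CpGs, recruits the NuRD co-repressor complex and is known as a repressor of fetal globin genes in erythroid cells.

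Several of these genes start within a CpG island, and upstream of it lies DNA whose CpGs differ in level. To show both kinds, 200-base stretches of the reference (hg38) are printed 5′ to 3′ on the strand of each gene. Every CG listed with 10 or more reads in all 4 libraries is in capitals. The UHRF1 and DNMT3B stretches lie in the promoter windows with the 2 largest losses described below, and the DNMT1, MBD2 and TET3 stretches lie in DNA with a pooled level under 5% in all 4 libraries.
UHRF1 upstream, chr19:4909000-4909199, plus strand, 501 to 302 bases before the start: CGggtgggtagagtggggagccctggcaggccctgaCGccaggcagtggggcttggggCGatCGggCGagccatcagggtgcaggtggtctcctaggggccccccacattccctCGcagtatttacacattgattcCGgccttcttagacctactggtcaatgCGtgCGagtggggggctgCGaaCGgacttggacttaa
DNMT3B upstream, chr20:32761448-32761647, plus strand, 937 to 738 bases before the start: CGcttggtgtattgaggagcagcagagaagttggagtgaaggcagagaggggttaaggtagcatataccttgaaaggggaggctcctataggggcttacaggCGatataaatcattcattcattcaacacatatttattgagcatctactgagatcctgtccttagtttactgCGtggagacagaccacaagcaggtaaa
DNMT1 upstream, chr19:10195138-10195337, minus strand, 384 to 185 bases before the start: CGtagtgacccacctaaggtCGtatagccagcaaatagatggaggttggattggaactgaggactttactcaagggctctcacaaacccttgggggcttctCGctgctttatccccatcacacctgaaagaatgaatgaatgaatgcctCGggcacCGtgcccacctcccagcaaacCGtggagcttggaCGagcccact
MBD2 upstream, chr18:54224695-54224894, minus strand, 225 to 26 bases before the start: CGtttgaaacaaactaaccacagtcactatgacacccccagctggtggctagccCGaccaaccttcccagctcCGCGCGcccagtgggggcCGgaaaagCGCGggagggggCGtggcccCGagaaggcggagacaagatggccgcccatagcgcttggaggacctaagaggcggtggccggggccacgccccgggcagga
TET3 upstream, chr2:73983998-73984197, plus strand, 912 to 713 bases before the start: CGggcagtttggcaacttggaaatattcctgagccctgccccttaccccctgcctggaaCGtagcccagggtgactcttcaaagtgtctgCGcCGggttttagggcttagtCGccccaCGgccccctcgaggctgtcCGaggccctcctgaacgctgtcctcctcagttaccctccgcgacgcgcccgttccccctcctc
The 11 capitalised CpGs of the UHRF1 stretch had a pooled level of 81.4% in non-differentiated cells, 82.7% in DMSO, 11.0% under the DNMT1 inhibitor and 74.5% under the EED inhibitor. The 3 CpGs of the DNMT3B stretch had 74.7%, 76.5%, 7.23% and 64.4% in the same order. By contrast, the 10 shared CpGs of the MBD2 stretch were at 0%, 0%, 0.654% and 0%, and the 7 of the TET3 stretch at 0.671%, 0%, 0% and 0%. The 7 CpGs of the DNMT1 stretch were at 3.83%, 4.75%, 0.388% and 1.20%, with a median CpG at 0% in every library. Its first CpG stood apart, at 24.4%, 26.3%, 2.22% and 5%, and its second was at 8% in DMSO. Within the UHRF1 stretch single CpGs ranged from 43.8% to 100% in DMSO and from 0% to 26.1% with the DNMT1 inhibitor.

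Promoter levels were computed as methylated reads over all reads at shared CpGs from 1000 bp upstream to 500 bp downstream of the MANE Select transcript start. A promoter needed 5 shared CpGs to be tested, and 7 of the 9 had them. Only 149 of the 997 reference CpGs in the 9 windows (14.9%) were shared, against 80.7% of the CpGs of the whole loci. Of the 149, 49 lay 1000 to 501 bp upstream (34.3% of the reference CpGs there), 58 in the 500 bp before the start (16.6%) and 42 in the 500 bp after it (8.32%). A difference was called when 2-sided Fisher's exact test on the reads gave a Benjamini-Hochberg adjusted p under 0.01 over all 18118 tested promoters and the levels differed by at least 25 percentage points.

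With the DNMT1 inhibitor, the promoter windows of UHRF1 and DNMT3B fell by more than 50 points, and those of the other 5 tested genes were at 25.8% or less already in DMSO. Of the 7, 4 were below 25% in DMSO, as were 46.9% of all tested promoters, and so could not be called lower by this rule. That made 2 of 7 promoters called lower and 0 called higher, against 43.7% of all tested promoters called lower. The median difference was -16.4 points over the 7 and -20.8 points over all promoters. The share of the 7 that was called lay below that of all promoters, and the count of 7 is too small to read more into it. A window from 2000 bp upstream called 8 of 9 (64.9% of all promoters), one from 500 bp upstream 1 of 5 (28.9%), and an adjusted p under 0.05 with at least 10 points called 6 of 7 (68.3%). With CpGs of 20 or more reads in every library 3 of 4 were called (52.4%): UHRF1, TET1 (-27.2 points) and MBD2 (-28.9 points). Neighbouring CpGs share reads, so as a bound on that dependence each window's reads were also divided by its number of CpGs. Under this bound Fisher's exact test gave DNMT3B an adjusted p of 2.6e-05 and UHRF1 one of 0.00891, and both calls held, while DNMT1, TET1, TET2 and MBD2 had 0.387, 0.195, 0.647 and 0.475. The share of all promoters called under this bound is not given here, so these calls cannot be set beside it.

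**Figure D1:**
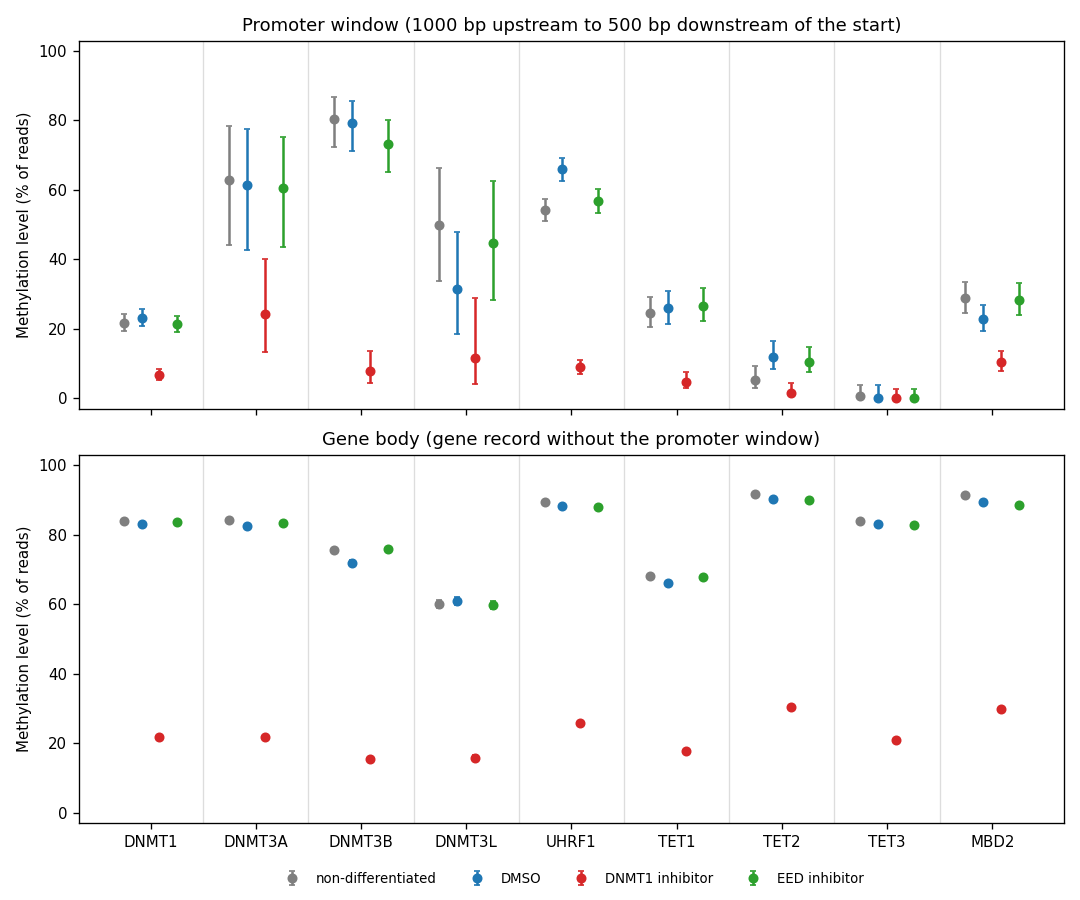
Methylation level (% of reads, vertical axis) of the promoter window (upper panel) and the gene body (lower panel) of each of the 9 genes, 1 point per library in 4 colours, with bars for the 95% Wilson interval of counting error (in the gene body panel mostly narrower than the point). In the lower panel the DNMT1 inhibitor library lies between 15.6% and 30.4% and the other 3 libraries between 59.7% and 91.8%; in the upper panel TET3 is at or near 0% in all 4 libraries.

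Among the writers, DNMT3B (chr20:32762385-32809359, plus strand, 23 exons in the MANE transcript) had the highest promoter level of the tested genes in DMSO. It stood at 80.5% in non-differentiated cells, 79.3% in DMSO, 7.75% under the DNMT1 inhibitor and 73.3% under the EED inhibitor, over 5 shared CpGs and 113 to 131 reads. The DNMT1 inhibitor library was below the other 3, whose 95% Wilson intervals overlapped. The difference from DMSO was -71.6 points (95% interval -78.8 to -61.4, adjusted p = 4.1e-32 by Fisher's exact test), and 0.668% of all promoters had a more negative difference. All 5 of these CpGs lie 1000 to 501 bp before the start. None of the 36 reference CpGs in the 500 bp before the start, nor of the 66 after it, was shared, so this value describes the upstream edge of the window and not the island around the start. The 5 shared CpGs 501 to 1000 bp after the start were at 2.94%, 2.41%, 0% and 1.49%.

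DNMT1 (chr19:10133342-10231286, minus strand, 41 exons, start at 10194953) had a promoter level of 21.7% in non-differentiated cells, 23.1% in DMSO, 6.67% with its inhibitor and 21.2% under the EED inhibitor, over 45 CpGs and 1100 to 1220 reads. The inhibitor library was again the lowest. It lay 16.4 points below DMSO (95% interval 13.5 to 19.3, adjusted p = 3.7e-28 by Fisher's exact test, 0.387 under the bound), which misses the 25-point rule. The window mixes unlike pieces of DNA. The 8 CpGs from 1000 to 501 bp upstream were at 84.3%, 88.1%, 25.8% and 84.3%, while the 23 CpGs from 500 bp upstream to the start were at 2.39%, 2.65%, 0.550% and 1.07%, and the 14 after it at 0%, 0%, 0.341% and 0.276%. The gene that encodes the inhibited enzyme thus had an unmethylated start in all 4 libraries, bounded upstream by methylated DNA whose level was lower with the inhibitor.

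The promoter windows of the other DNMT3 genes had too few CpGs to be tested. DNMT3A (chr2:25227855-25342590, minus strand, 23 exons) has 185 reference CpGs in its window, and the 2 that were shared were at 63.0%, 61.5%, 24.3% and 60.6% on 26 to 37 reads per library. DNMT3L (chr21:44246339-44262216, minus strand, 12 exons) had 2 shared CpGs of 32, at 50.0%, 31.4%, 11.5% and 44.8% on 26 to 35 reads. In both genes the pooled level mixes 2 unlike CpGs. In DNMT3A 1 was at 100%, 100%, 40.9% and 90.9% and the other at 0% in all 4 libraries. In DNMT3L 1 was at 100%, 76.9%, 20% and 92.9% and the other at 5.88%, 4.55%, 6.25% and 0%. The 95% interval of the pooled DNMT3A value in DMSO ran from 42.5% to 77.6%, so only the values are given.

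UHRF1 (chr19:4903080-4962154, plus strand, 17 exons, start at 4909501) stood at 54.3% in non-differentiated cells, 66.0% in DMSO, 8.85% under the DNMT1 inhibitor and 56.8% under the EED inhibitor, over 42 CpGs and 741 to 905 reads. The fall with the DNMT1 inhibitor was 57.2 points (95% interval 53.1 to 60.9, adjusted p = 9.98e-127 by Fisher's exact test). The level in DMSO was also above both other libraries, by 11.8 points over non-differentiated cells (95% interval 7.10 to 16.4, adjusted p = 0.000146 by Fisher's exact test), and the EED inhibitor library lay 9.21 points below DMSO (95% interval -14.0 to -4.33 for EED inhibitor minus DMSO, adjusted p = 0.00665), both short of the 25-point rule. At an adjusted p under 0.05 and at least 10 points the first of these was called, where 0.431% of all promoters were called higher.

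The window was not uniform along its length. From 1000 to 501 bp upstream, UHRF1 was at 94.4%, 92.9%, 17.0% and 95.5%. From 500 bp upstream to the start it was at 63.2%, 71.8%, 7.69% and 58.4%, and in the 500 bp after the start at 1.69%, 4.07%, 0.439% and 2.37%. The last of these pieces had 296 reads in non-differentiated cells, 172 in DMSO, 228 under the DNMT1 inhibitor and 211 under the EED inhibitor, so this piece, the lowest in level, had fewer reads in DMSO than in the other libraries; its part in the differences was not tested. With every CpG given the same weight, the difference of DMSO from non-differentiated cells was 1.77 points and that of the EED inhibitor from DMSO -1.63 points, and with only CpGs of 20 or more reads in every library they were -3.80 and 4.11 points. Over all CpGs listed in each library they were 13.6 points (adjusted p = 1.79e-11 by Fisher's exact test) and -1.14 points, from 500 bp upstream 13.8 points (adjusted p = 0.00224) and -13.2 points (adjusted p = 0.00389), and from 2000 bp upstream 2.88 and -2.16 points. Of the settings run, the one with 20 or more reads reversed both directions and no other reversed either. Under the bound on dependence both had an adjusted p of 1. The bound leaves about 17.6 to 21.5 reads in these libraries, too few to decide on differences of this size. The loss with the DNMT1 inhibitor was 41.7 points with equal weights and 37.3 points over all listed CpGs.

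**Figure D2:**
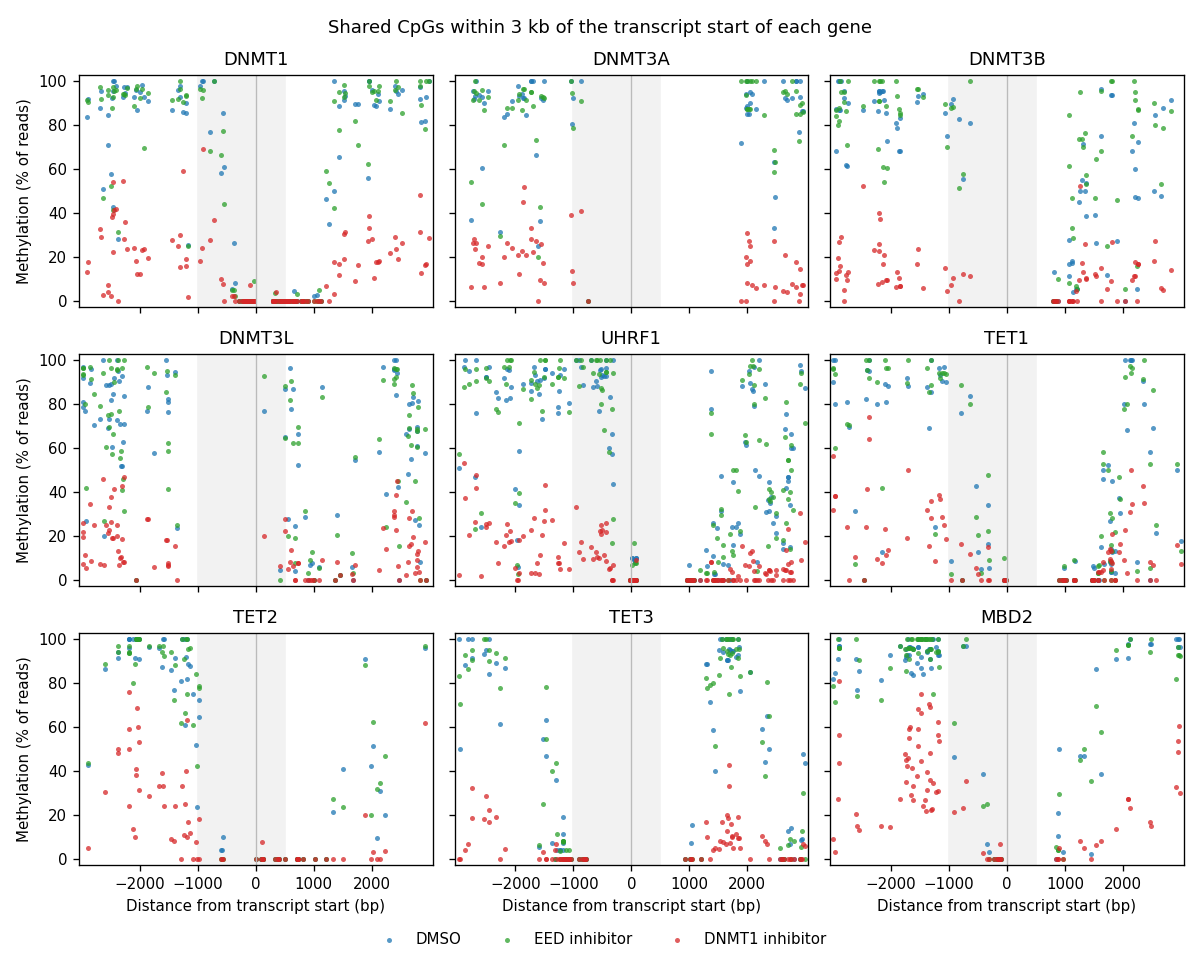
Methylation (% of reads, vertical axis) of single shared CpGs against distance from the transcript start (bp, horizontal axis) for the 9 genes, in the DMSO, EED inhibitor and DNMT1 inhibitor libraries. Grey marks the promoter window; CpGs next to the start are at or near 0% in all 3 libraries in DNMT1, UHRF1, TET2 and MBD2, not in DNMT3L, and windows such as those of DNMT3A and DNMT3B have almost no shared CpG beside the start.

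Of the erasers, TET1 (chr10:68560337-68694487, plus strand, 12 exons) had a promoter level of 24.5% in non-differentiated cells, 25.8% in DMSO, 4.57% under the DNMT1 inhibitor and 26.6% under the EED inhibitor, over 14 CpGs and 327 to 367 reads. The DNMT1 inhibitor library was 21.3 points below DMSO (95% interval 16.0 to 26.6, adjusted p = 9.9e-15 by Fisher's exact test, 0.195 under the bound), under the 25-point rule. Its 6 CpGs from 1000 to 501 bp upstream were at 32.0%, 40.6%, 6.25% and 36.3% and its 8 CpGs nearer the start at 17.7%, 12.6%, 2.21% and 14.5%. None of the 49 reference CpGs in the 500 bp after the start was shared.

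TET2 (chr4:105145875-105279816, plus strand, 11 exons) stood lower, at 5.31%, 11.8%, 1.52% and 10.5% over 16 CpGs and 198 to 275 reads. The DNMT1 inhibitor library was 10.3 points below DMSO (95% interval 5.78 to 15.1, adjusted p = 2.2e-05 by Fisher's exact test, 0.647 under the bound). The methylated reads came mainly from the 5 CpGs from 1000 to 501 bp upstream, at 19.3%, 26.9%, 3.85% and 42.6%, whereas the 10 CpGs in the 500 bp after the start were at 0%, 0%, 0.735% and 0%. A second annotated start 1001 bp upstream of the MANE start has a window of 25 shared CpGs at 80.3%, 74.7%, 20.2% and 82.3%.

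TET3 (chr2:73984910-74108176, plus strand, 12 exons) had the lowest promoter level of the 9. All 7 of its shared CpGs lie 1000 to 501 bp before the start. None of the 62 reference CpGs in the 500 bp before the start, nor of the 74 after it, was shared, so no level near the start was measured. The level was 0.671% in non-differentiated cells and 0% in the other 3 libraries over these 7 CpGs. By 3 counts of the reads, this allows up to 3.19% in DMSO, 2.01% under the DNMT1 inhibitor and 2.19% under the EED inhibitor. These limits take all counts as independent. Neighbouring CpGs share reads, with 10 to 19 reads per CpG in DMSO, so the limits are too low. No methylated read was seen there in DMSO, so a loss was not detectable.

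MBD2 (chr18:54151606-54224669, minus strand, 7 exons), the reader, had a promoter level of 28.7%, 22.9%, 10.3% and 28.4% over 16 CpGs and 383 to 484 reads. The DNMT1 inhibitor library was 12.6 points below DMSO (95% interval 7.83 to 17.4, adjusted p = 4.7e-07 by Fisher's exact test, 0.475 under the bound), and the other 3 overlapped in their intervals. Its 3 CpGs from 1000 to 501 bp upstream were at 85.4%, 75.2%, 26.3% and 87.2% and the 13 between them and the start at 1.92%, 4.74%, 0.763% and 5.38%. None of the 83 reference CpGs in the 500 bp after the start was shared.

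For differentiation and for the EED inhibitor, 0 of the 7 promoters were called by Fisher's exact test, against 0% and 0.0221% of all tested promoters. The largest differences of the 7 between DMSO and non-differentiated cells were the 11.8 points of UHRF1 and 6.50 points at TET2 (adjusted p = 0.161 by Fisher's exact test), and for the EED inhibitor the -9.21 points of UHRF1 and -6.03 points at DNMT3B (95% interval -16.4 to 4.69). Promoters with as few reads as DNMT3B therefore leave room for differences of more than 10 points.

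Other annotated starts inside or beside the genes differed in level from the MANE start. DNMT3A has starts 89614 and 92222 bp downstream, in the gene, whose windows were at 86.8% and 88.6% in DMSO and at 39.6% and 29.9% with the DNMT1 inhibitor. Starts within TET3 (17803 bp downstream) and DNMT3B (17467 bp downstream) were of intermediate level, at 46.0% and 51.3% in DMSO, and at 4.59% and 8.74% with the DNMT1 inhibitor. The UHRF1 start 6421 bp upstream had 74.1% in DMSO and 18.8% with the inhibitor. These values are descriptions with no test.

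Gene bodies were measured over far more CpGs, from 223 for DNMT3L to 1918 for DNMT1, as the GENCODE gene record without the promoter window. All 9 were lower in the DNMT1 inhibitor library: 9 of 9 were called, against 96.6% of the 18464 tested gene bodies, so this is shared with nearly every gene. The median difference was -60.0 points over the 9 and -53.7 points over all genes.

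The order of the bodies in DMSO was TET2 (90.3%), MBD2 (89.4%), UHRF1 (88.4%), DNMT1 (83.2%), TET3 (83.0%), DNMT3A (82.5%), DNMT3B (72.0%), TET1 (66.3%) and DNMT3L (60.9%). Adjacent genes in this order from DNMT1 to DNMT3A had overlapping 95% intervals. With the DNMT1 inhibitor the levels were 30.4% for TET2, 29.8% for MBD2, 25.8% for UHRF1, 21.9% for DNMT1, 20.8% for TET3, 21.9% for DNMT3A, 15.6% for DNMT3B, 17.8% for TET1 and 15.6% for DNMT3L. By these gene records, the 3 genes highest in DMSO were also the 3 highest with the inhibitor.

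The non-differentiated and EED inhibitor libraries lay close to DMSO in every body. In non-differentiated cells the writers were at 84.1% (DNMT1), 84.3% (DNMT3A), 75.6% (DNMT3B) and 60.0% (DNMT3L), and with the EED inhibitor at 83.6%, 83.3%, 75.9% and 59.7%. UHRF1 was at 89.4% in non-differentiated cells and 88.1% with the EED inhibitor. The erasers TET1, TET2 and TET3 were at 68.2%, 91.8% and 84.1% in non-differentiated cells and at 67.7%, 90.1% and 82.9% with the EED inhibitor, and MBD2 at 91.4% and 88.6%. No body was called by Fisher's exact test in either comparison, against 0% of all tested gene bodies in both. In DMSO, 8 of the 9 bodies lay below the non-differentiated library, with DNMT3L the exception at 0.921 points above (95% interval -0.666 to 2.51), and the median of the 9 differences was -1.51 points, beside -1.13 points over all genes.

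**Figure D3:**
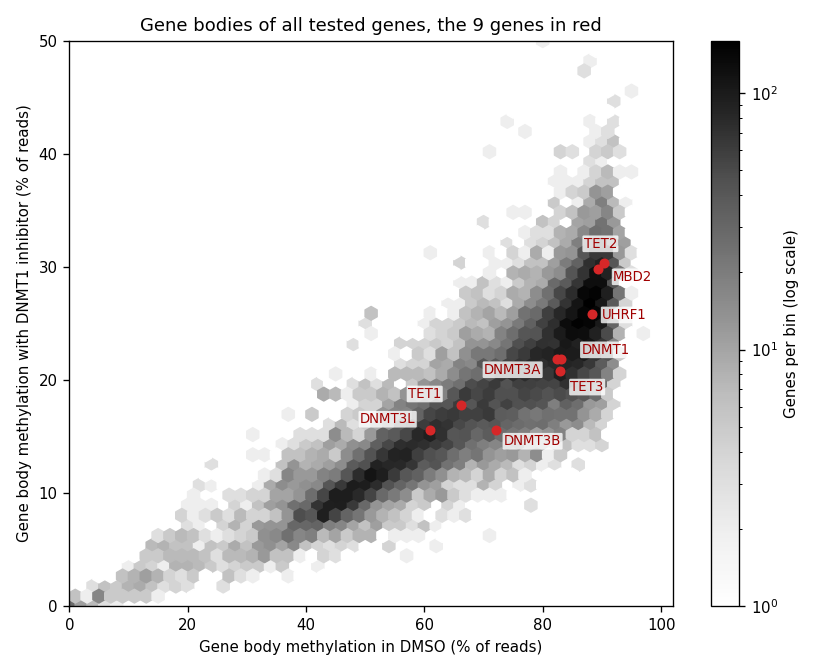
Gene body methylation with the DNMT1 inhibitor (% of reads, vertical axis) against that in DMSO (% of reads, horizontal axis) for the 18464 tested genes, shaded by the number of genes per bin on a log scale, with the 9 genes as labelled red points. All 9 lie within the band formed by the other genes, TET2 and MBD2 at its upper right and DNMT3B towards its lower edge.

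The share of its DMSO level that each body kept with the DNMT1 inhibitor was 26.3% for DNMT1, 26.5% for DNMT3A, 21.6% for DNMT3B and 25.6% for DNMT3L. It was 29.2% for UHRF1, 26.9% for TET1, 33.6% for TET2, 25.0% for TET3 and 33.3% for MBD2. Over all gene bodies at 50% or more in DMSO the median was 27.3%. The central 90% of them ran from 19.2% to 37.0%, so all 9 lay inside that range. TET2 and MBD2 stood highest, above 88.0% and 87.1% of these gene bodies, and DNMT3B lowest, above 12.5%.

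DNMT3B showed the largest body difference with the EED inhibitor among the 9. Its level was 72.0% in DMSO and 75.9% with the EED inhibitor, close to the 75.6% of non-differentiated cells. The EED inhibitor library exceeded DMSO by 3.89 points (95% interval 2.98 to 4.80, adjusted p = 4.4e-15 by Fisher's exact test, 1 under the bound on dependence), more than in 97.7% of all gene bodies, and DMSO lay 3.54 points below non-differentiated cells (95% interval 2.61 to 4.47). Both differences are far under the 25-point rule, and both rest on the same DMSO library. The bound leaves about 25.1 reads for the whole body in DMSO and 25.8 with the EED inhibitor. That is too few to call a difference of 3.89 points, so the bound cannot decide on it. In 1 kb windows the EED inhibitor library was above DMSO in 42 of 56 windows of the DNMT3B locus, where 43.4% of windows in the whole genome were above. DNMT3B was not alone in this sign: 83 of 141 TET1, 71 of 123 DNMT3A and 61 of 109 DNMT1 windows were also higher with the EED inhibitor. In the other 5 genes more windows were lower than higher, with 11 of 14 in DNMT3L, 42 of 70 in UHRF1, 46 of 79 in MBD2, 65 of 115 in TET2 and 67 of 130 in TET3.

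**Figure D4:**
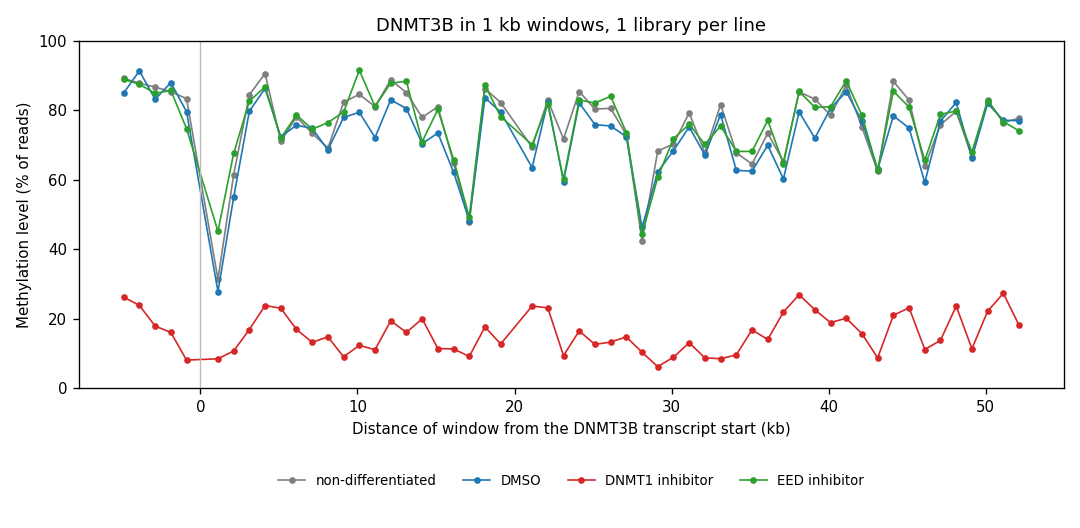
Methylation level (% of reads, vertical axis) of 1 kb windows with 3 or more shared CpGs along DNMT3B, by distance of the window from the transcript start (kb, horizontal axis), 1 line per library. The window just after the start holds 27.8% in DMSO and 45.2% with the EED inhibitor, and the DNMT1 inhibitor line stays below 30% throughout.

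To look inside the loci, all 1 kb windows of the genome with 3 or more shared CpGs were tested in the same way. With the DNMT1 inhibitor 809 of the 837 windows of the 9 loci were called lower, or 96.7% against 81.3% of all windows, with 0 higher. The median difference was -60.1 points in these windows and -42.4 points over the genome. The loci also started higher: in DMSO they ranged from 62.7% (DNMT3L) to 88.7% (TET2), while all shared CpGs of the genome were at 60.3%. The calls and differences in points are not adjusted for this, and the share kept is given below. Nor are the calls adjusted for the number of CpGs per window, which was higher in these loci. Every one of the 123 DNMT3A windows was called lower, and the smallest share was the 119 of 130 TET3 windows, 7 of which were already under 20% in DMSO. Of single CpGs, 10107 of 11947 (84.6%) were called lower, against 63.6% of all shared CpGs, from 71.1% at DNMT3L to 91.1% at UHRF1.

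No window and no CpG of the 9 loci was called by Fisher's exact test for differentiation (0.00115% of all windows and 0% of all CpGs were called) or for the EED inhibitor (0.0325% and 0.00437%). At an unadjusted p under 0.05 by the same exact test, 78 of the 837 windows were lower and 19 higher in DMSO than in non-differentiated cells, or 9.32% and 2.27%, beside 6.20% and 2.11% of all windows. With the EED inhibitor 35 were lower and 72 higher than in DMSO, or 4.18% and 8.60%, beside 8.33% and 4.23% of all windows. Windows of the 9 loci hold more shared CpGs on average (11947 CpGs for 837 windows) than those of the genome (23269121 for 2431792). Their tests thus pool more CpGs, and the window shares are not adjusted for this. For single CpGs these counts were 169 lower and 79 higher with differentiation, or 1.41% and 0.661%, beside 1.62% and 0.931% of all CpGs. With the EED inhibitor they were 197 lower and 225 higher, or 1.65% and 1.88%, beside 3.34% and 2.12%. All 4 shares lay below those of all CpGs.

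Under a wider rule, an adjusted p under 0.05 and at least 10 points, 4 windows differed with the EED inhibitor (3 higher and 1 lower, where 0.208% and 0.640% of all windows did) and 1 with differentiation (higher, where 0.0145% did). A pair of adjacent windows in intron 1 of DNMT3B were higher with the EED inhibitor. The window chr20:32763001-32764000, of 23 CpGs, stood at 31.4% in non-differentiated cells, 27.8% in DMSO, 8.50% under the DNMT1 inhibitor and 45.2% under the EED inhibitor, a difference of 17.3 points from DMSO (adjusted p = 0.000763 by Fisher's exact test). Its neighbour chr20:32764001-32765000, of 15 CpGs, stood at 61.4%, 54.9%, 10.7% and 67.5%, a difference of 12.6 points (adjusted p = 0.0495 by Fisher's exact test). Here the EED inhibitor library was above both DMSO and non-differentiated cells. The third was chr10:68623001-68624000 in intron 3 of TET1, of 7 CpGs, at 35.2%, 33.2%, 2.88% and 48.1%, 14.9 points above DMSO (adjusted p = 0.0455 by Fisher's exact test).

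The lower window with the EED inhibitor and the higher one with differentiation were 1 and the same, chr19:4909001-4910000 over exon 1 of UHRF1, of 29 CpGs, at 31.8%, 45.6%, 4.21% and 32.4%. It holds the UHRF1 start, where the uneven reads described above lie. Under this wider rule 1 single CpG was lower with the EED inhibitor (0.0245% of all CpGs were): position 44257830 on chromosome 21 in intron 6 of DNMT3L, at 67.3% of 49 reads, 82.6% of 46, 22.9% of 48 and 35.6% of 45. It is the only CpG of the 9 loci named by itself, and was chosen after its values were seen. The 1 kb window around it was at 73.1% with the EED inhibitor and 76.9% in DMSO.

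How much methylation was left with the DNMT1 inhibitor varied within each gene. In windows of 5 or more CpGs at 50% or more in DMSO, the median share kept was 31.1% in MBD2, 30.8% in TET2, 28.4% in UHRF1, 25.0% in DNMT3A, 24.9% in TET1, 24.6% in DNMT1 and in DNMT3L, 23.4% in TET3 and 20.4% in DNMT3B. Over all such windows of the 9 loci it was 26.0%, and over the 1215272 of the genome it was 26.4%. Windows that kept 50% or more were found in TET2 (5 of 76) and MBD2 (2 of 66) and in none of the other 7 genes. That was 7 of 716 windows of the 9 loci (0.978%), below the 2.1% of windows of the genome that kept as much. The highest windows of TET3 (49.98%) and DNMT3A (49.91%) lay just under this cut.

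**Figure D5:**
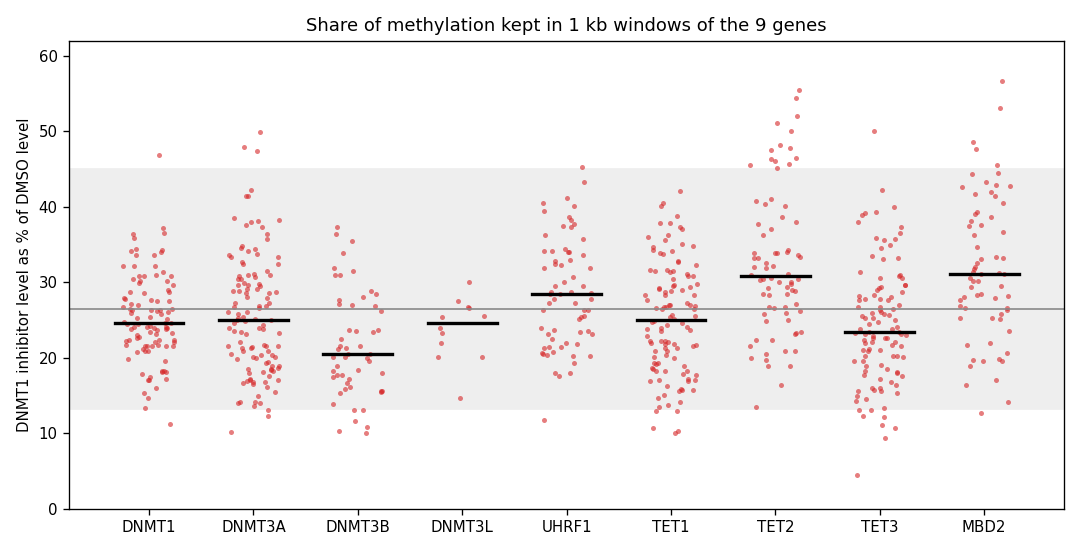
DNMT1 inhibitor level as a percentage of the DMSO level (vertical axis) in 1 kb windows with 5 or more shared CpGs at 50% or more in DMSO, 1 point per window and a black line at the median of each gene (points are spread sideways for visibility). The grey line and band mark the median (26.4%) and the central 90% of all such windows of the genome (13.2% to 45.0%); the points above 50% belong to TET2 and MBD2.

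The window that kept the least, chosen after its values were seen, is shown by a 200-base stretch, again with CpGs listed in all libraries in capitals. It shows the spacing of the CpGs in this DNA.
TET3 intron 3, chr2:74004023-74004222, plus strand: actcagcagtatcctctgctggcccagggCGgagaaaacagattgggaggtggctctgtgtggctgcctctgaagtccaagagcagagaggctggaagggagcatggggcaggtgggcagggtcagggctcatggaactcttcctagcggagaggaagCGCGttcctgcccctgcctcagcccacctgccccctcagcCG
The TET3 window chr2:74004001-74005000 in intron 3, of 10 CpGs, was at 53.1% in non-differentiated cells, 57.8% in DMSO, 2.58% under the DNMT1 inhibitor and 58.0% under the EED inhibitor, and kept 4.47%, less than all but 0.0578% of windows. It lies beside the internal TET3 start. The highest TET2 window, chr4:105268001-105269000 in intron 8, had 8 CpGs at 96.6%, 95.1%, 52.7% and 95.9% in the same order. The highest windows of DNMT1 and UHRF1 lay upstream of their MANE starts, over S1PR2 and ARRDC5.

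In most classes the kept share was higher where CpGs lay closer together. CpGs were grouped by the number of CpGs within 250 bp on either side, each CpG counting itself. In each of the 8 genes with CpGs in both classes, the class of 11 or more kept more than that of 3 to 5. The shares ran from 26.3% against 22.8% in DNMT3B to 48.5% against 30.3% in TET2. Among CpGs at 80% or more in non-differentiated cells, those of TET2 in the class of 1 to 2 kept 28.3%. Those in the class of 11 or more kept 48.5%. In MBD2 these shares were 24.2% and 45.7%, and in TET1 17.5% and 34.1%. The gap was smaller in TET3, at 23.9% and 28.4%, and in DNMT1 the few CpGs of the sparsest class (6) kept 31.6% while the densest kept 29.2%. In UHRF1 the sparsest class was 1 CpG, which kept 40%, against 30.9% in the densest. In the densest class UHRF1 and DNMT3B (26.3%) lay below TET2 and MBD2, but this class has no upper limit and was filled unequally, with 1276 CpGs in UHRF1 and 149 in TET2. CpGs of 1 gene share libraries and neighbouring reads, so these are descriptions with no test.

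Exons and introns of the MANE transcripts differed little in most of the genes. In DMSO, exons and introns were at 94.7% and 90.3% in DNMT1, 92.6% and 81.2% in TET3 and 76.9% and 71.0% in DNMT3B, the 3 genes where exons lay furthest above introns, while TET1 had 63.5% in exons and 66.4% in introns. The DNMT1 inhibitor left 34.4% in UHRF1 exons and 25.6% in its introns, and 25.0% in MBD2 exons and 30.1% in its introns. The 2 genes were thus opposite in which part stayed higher.

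The DNMT1 gene record reaches more than 30 kb upstream of the MANE start and over S1PR2, a sphingosine phosphate receptor gene. Over the span of the MANE transcript alone, chosen as an alternative after the data were seen, DNMT1 was at 92.0%, 91.4%, 23.2% and 91.1%. The body level of DNMT1 in DMSO was therefore 83.2% or 91.4% by which span is meant, and the loss with its inhibitor 61.3 or 68.2 points. For DNMT3L, 39.8% of the reference CpGs of the locus were shared, and none beyond position 44253442 towards its 3′ end. The rest of that gene was not analysed here.

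The wider machinery around these genes was described by 43 other genes of the pathway. With the DNMT1 inhibitor 13 of the 40 tested promoters were called lower and 0 higher, with a median difference of -10.2 points, beside 43.7% called and a median of -20.8 points over all promoters. By role, 3 of 10 readers and cofactors, 4 of 8 maintenance partners, 1 of 7 repair and demethylation genes, 1 of 6 genes of the methyl donor cycle, 2 of 4 cofactor metabolism genes and 2 of 5 others were called. The 3 with the largest loss were TRDMT1, which methylates transfer RNA, NEIL1, a DNA glycosylase of base excision repair, and D2HGDH, the D-2-hydroxyglutarate dehydrogenase. TRDMT1 was at 86.6%, 78.4%, 13.5% and 78.6%, NEIL1 at 81.0%, 81.5%, 21.3% and 85.5%, and D2HGDH at 67.7%, 68.4%, 18.3% and 70.6%. In all 3 the DNMT1 inhibitor library alone was low. In gene bodies 40 of 41 tested genes of this list were called lower, beside 96.6% of all gene bodies. Differentiation called no promoter or body of the list, beside 0% of all of both, and the EED inhibitor none, beside 0.0221% of all promoters and 0% of all bodies.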

How the data were processed

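Genomic DNA of HUDEP-2 cells was bisulfite-converted with 0.5% added lambda DNA and sequenced in paired-end reads, per the labels' protocols. Per the submitters' processing notes, Trim Galore 0.6.7, cutadapt 4.1, Bismark, Bowtie2 2.1.0, methylKit and the hg38 build were used; their settings, any removal of duplicate reads and the conversion rate are not given in the sources used here. The authors deposited 1 table per library with, for each CpG with both strands merged and 10 or more reads, a read count (the coverage) and a percent (the methylation level).

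Methylated reads were recovered as coverage times the percent, and came out whole for 100% of rows within 0.0005 of the coverage. CpGs listed in all 4 libraries were used, with Python 3.11.15, numpy 2.4.6, scipy 1.17.1 and numba 0.67.0. Levels are summed methylated reads over summed reads, with 95% Wilson intervals and Newcombe intervals for differences. Genes came from GENCODE 44, with MANE Select transcripts; sequences were read from the hg38 reference. Fisher's exact tests (2-sided) were run over all promoters (5 or more shared CpGs), gene bodies (10 or more), 1 kb windows (3 or more) or CpGs, and adjusted over all of them by the Benjamini-Hochberg method. The code was checked on simulated data with counting noise only, which says nothing about variation between libraries. All 9 genes are named; of 43 other pathway genes, the 3 called promoters with the largest difference are named. Other genes of that list and a stretch of sequence are not reported here. The members and lists were chosen with earlier results of these data known. Alternatives covered the coverage minimum, weighting, CpGs used, dependence between CpGs, very deep CpGs, the call rule and the promoter and body spans.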

Additional observations from a re-analysis of the deposited data

How the results depend on the processing

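All 9 gene body losses with the DNMT1 inhibitor were called under every alternative run with a test, beside 96.6% of all gene bodies in the reported setting, 97.3% at 20 or more reads and 99% at an adjusted p under 0.05 and 10 points. Of promoters, with DNMT1 inhibitor and DMSO compared, 1 of 5 tested was called when the window began 500 bp upstream (28.9% of all), 8 of 9 when it began 2000 bp upstream (64.9% of all) and 6 of 7 at an adjusted p under 0.05 and 10 points (68.3% of all). At 20 or more reads 3 of 4 were called (52.4% of all), where TET1 (-27.2 points) and MBD2 (-28.9 points, from -12.6) passed the rule. At an adjusted p under 0.05 and 10 points, 1 promoter, UHRF1, was called higher with differentiation (0.431% of all), 1 window with differentiation, and 4 windows and 1 CpG with the EED inhibitor.

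Some promoter differences changed sign. Among them were the largest of the 7 for differentiation and for the EED inhibitor, both at UHRF1 (11.8 and -9.21 points in the reported setting). For DMSO minus non-differentiated cells, UHRF1 was -3.80 points at 20 or more reads, TET1 -0.70 and MBD2 0.54 points with equal weights, TET1 -5.06 and MBD2 2.81 points from 500 bp upstream, and TET3 1.75 points from 2000 bp upstream. For the EED inhibitor minus DMSO, DNMT1 was 1.30, UHRF1 4.11 and TET1 -0.406 points at 20 or more reads, TET2 0.102 points with equal weights, TET1 -3.91 and TET2 2.45 points over all listed CpGs, and DNMT3B 1.82 points from 2000 bp upstream. For the DNMT1 inhibitor minus DMSO, TET2 was 0.685 points from 500 bp upstream, where the methylated CpGs fall outside the window. In the 500 bp after its start DMSO was at 0% of 122 reads and the DNMT1 inhibitor at 0.735% of 136. In gene bodies, DNMT3L was -0.796 points for differentiation with equal weights, and for the EED inhibitor TET3 was 0.326 points over all listed CpGs and DNMT1 -0.339 points over the MANE span. The cause of these changes of sign was not tested. In all, 213 gene body and 125 promoter values kept their sign, and 14 promoter values were 0 in one or both settings. Sizes could still move: from 500 bp upstream the losses with the DNMT1 inhibitor were -1.45 points in DNMT1, -10.4 in TET1 and -3.97 in MBD2, and from 2000 bp upstream -31.9 in DNMT1, -40.00 in TET1, -46.1 in TET2, -35.4 in MBD2 and -9.25 in TET3.

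No paired analysis was possible because each group has 1 library, and leaving out a library leaves no comparison. The promoter values of DNMT3A, DNMT3B, DNMT3L and TET3 rest on 2 to 7 shared CpGs, which limits their precision. Those of DNMT3A, DNMT3B and TET3 come only from 1000 to 501 bp upstream.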
